A study of Sus scrofa with 599 samples.

Results

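In the retroperitoneal fat of weight-reduced pigs, 1306 of 21825 autosomal H3K27ac enhancer regions (5.98%) overlapped a region in both obese retroperitoneal tables and none in the table of lean controls. They were selected on the deposited H3K27ac tables alone, by overlaps of at least 1 bp, and are called gained-and-kept regions below. The study used 2-year-old female Bama pigs, a Chinese miniature breed, and sampled retroperitoneal fat (RAD) and 3 other depots: greater omentum (GOM), mesenteric fat (MAD) and the upper layer of backfat (ULB). The NC group (12 pigs) ate a normal diet, and the WG group (46 pigs) ate a high-fat diet for 22 weeks to gain weight. The WL group (10 pigs) had the same high-fat diet and then 12 weeks at 10% of the normal daily caloric intake. The labels name no transgene or drug, and the groups held different pigs.

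H3K27ac is acetylation of lysine on the tail of histone H3, found on nucleosomes that flank active enhancers and promoters. The program ROSE joins nearby H3K27ac peaks into enhancer regions and marks the strongest as super-enhancers, which in many cell types lie beside genes of cell identity. Fat depots around the viscera, retroperitoneal fat among them, store triglyceride in adipocytes that sit among vessels, fibroblasts and macrophages, and macrophages are known to accumulate there in obesity.

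The tables were pooled within a group, so a region carries no value per animal and no test between diets was possible at the level of a region. Behind the NC table stood 2 H3K27ac samples with 2 inputs, behind WL 4 with 3 inputs. The obese pigs were split by the authors by the estimated cell composition of their fat, and RAD has tables of subgroup 5 (11 H3K27ac samples, 6 inputs) and subgroup 6 (1 sample, 1 input). The table of NC held 20732 regions over 464.6 Mb, that of subgroup 5 held 18143 over 306.3 Mb, that of subgroup 6 held 25206 over 379.8 Mb and that of WL held 21825 over 442.5 Mb. The defining transcripts of the labelled tissue were present: the 9 adipocyte markers summed to a median of 21472 TPM (transcript abundance scaled to gene length and library size) in NC, 23971 in WG and 24398 in WL, and 4 kidney markers to 1.62, 0.326 and 0.226 TPM. These are medians, and single libraries differed. The kidney sum peaked at 58.8 TPM among WG libraries, 7.04 among NC libraries and 0.688 among WL libraries. The sum of 3 skeletal muscle markers peaked at 91.1 TPM among WG libraries, 4.18 among NC libraries and 3.19 among WL libraries. Whether the WG libraries with these peaks held tissue other than fat was not tested.

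The sequences below show what the regions look like at their centres, for the 5 regions beside the genes called higher in both WG and WL than in NC with the largest smaller fold change of the pair, and for the 3 regions with the densest H3K27ac after input subtraction. Each is the reference sequence (RefSeq, Sscrofa11.1, plus strand, 5′ to 3′) of at most 300 bases at the middle of the region, not the pigs' own reads. Capitals mark matches, on either strand, to 11 motifs of factors active in fat or immune cells: AP-1 (TGANTCA), C/EBP (TTGCNNAA), the nuclear receptor core (AGGTCA), the myeloid factor PU.1 (GAGGAAGT), the glucocorticoid receptor core (AGAACA), the interferon factors IRF (GAAANNGAA), the nuclear factor I core (TTGGCA), the SOX family (ACAATGG), the zinc finger family of GATA proteins (read as AGATAAG), the Hippo pathway factors TEAD (GGAATG) and the factors EBF (CCCNNGGGA).
THEM6, chr4:1485551-1485850: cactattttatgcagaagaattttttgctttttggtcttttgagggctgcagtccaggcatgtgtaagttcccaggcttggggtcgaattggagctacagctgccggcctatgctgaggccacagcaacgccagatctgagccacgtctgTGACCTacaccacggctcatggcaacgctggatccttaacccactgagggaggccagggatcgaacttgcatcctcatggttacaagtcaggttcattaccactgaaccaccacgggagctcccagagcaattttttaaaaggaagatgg
CAPG, chr3:59360051-59360350: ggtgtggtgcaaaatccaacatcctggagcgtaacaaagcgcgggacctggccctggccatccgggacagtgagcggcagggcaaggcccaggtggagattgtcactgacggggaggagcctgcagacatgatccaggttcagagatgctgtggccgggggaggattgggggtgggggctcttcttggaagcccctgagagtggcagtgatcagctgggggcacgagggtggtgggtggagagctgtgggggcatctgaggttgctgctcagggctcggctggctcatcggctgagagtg
SLC17A9, chr17:62203851-62204150: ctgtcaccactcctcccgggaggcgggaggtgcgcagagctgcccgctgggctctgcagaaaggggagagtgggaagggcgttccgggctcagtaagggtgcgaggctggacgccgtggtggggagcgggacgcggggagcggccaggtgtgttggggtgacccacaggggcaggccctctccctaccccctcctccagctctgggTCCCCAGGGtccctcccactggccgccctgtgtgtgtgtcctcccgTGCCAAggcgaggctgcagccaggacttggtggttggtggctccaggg
MDGA1, chr7:33276851-33277150: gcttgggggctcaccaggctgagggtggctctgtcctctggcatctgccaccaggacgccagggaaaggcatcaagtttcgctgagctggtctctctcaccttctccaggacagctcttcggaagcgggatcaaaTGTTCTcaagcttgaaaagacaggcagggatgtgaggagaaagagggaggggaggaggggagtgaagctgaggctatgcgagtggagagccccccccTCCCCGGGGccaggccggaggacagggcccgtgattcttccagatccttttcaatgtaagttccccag
GPR153, chr6:67142351-67142650: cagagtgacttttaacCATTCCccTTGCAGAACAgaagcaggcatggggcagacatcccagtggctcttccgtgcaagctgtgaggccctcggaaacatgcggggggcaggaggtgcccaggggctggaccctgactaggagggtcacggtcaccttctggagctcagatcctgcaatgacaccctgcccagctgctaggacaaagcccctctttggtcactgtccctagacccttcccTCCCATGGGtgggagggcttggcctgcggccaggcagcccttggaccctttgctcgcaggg
Densest, chr14:11525001-11525200: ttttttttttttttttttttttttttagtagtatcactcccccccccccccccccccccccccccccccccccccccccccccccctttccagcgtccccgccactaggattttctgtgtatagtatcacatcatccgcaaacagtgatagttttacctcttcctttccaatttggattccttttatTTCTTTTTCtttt
Second densest, chr6:62027551-62027850: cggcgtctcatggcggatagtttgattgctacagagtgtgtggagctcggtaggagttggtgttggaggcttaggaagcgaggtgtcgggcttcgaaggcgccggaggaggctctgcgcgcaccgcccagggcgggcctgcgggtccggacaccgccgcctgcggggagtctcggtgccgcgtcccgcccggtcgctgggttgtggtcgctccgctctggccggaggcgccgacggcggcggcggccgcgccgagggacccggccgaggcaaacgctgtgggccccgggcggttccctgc
Densest on chromosome 2, chr2:6660851-6661150: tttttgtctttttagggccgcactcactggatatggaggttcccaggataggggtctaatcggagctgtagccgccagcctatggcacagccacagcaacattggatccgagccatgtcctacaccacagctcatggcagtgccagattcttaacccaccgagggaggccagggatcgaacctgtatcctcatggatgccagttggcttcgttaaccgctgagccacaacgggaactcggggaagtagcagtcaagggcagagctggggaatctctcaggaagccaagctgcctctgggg

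The windows differ in kind. That of SLC17A9 is 70.7% G or C and holds an EBF and a nuclear factor I match, and that of MDGA1 holds an EBF and a glucocorticoid receptor match. The GPR153 window has 4 matches, with C/EBP, TEAD and glucocorticoid receptor letters within one short stretch and an EBF match farther on. CAPG and the second densest region have none. The THEM6 window is 92.7% soft-masked repeat and that of the chromosome 2 region is 87.3%. The densest region is only 200 bp long, is 95% repeat and carries runs of T and C, and its input density in ROSE units (library-scaled reads per base) of 0.754 was the highest of the 5 densest regions, against 0.137 in the second. Repeats of this kind can draw reads from several copies in the genome, and their part in these signals was not tested.

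Gained-and-kept regions were shorter and weaker than the regions shared by all diets. Their median length was 5000 bp (200 to 75200 bp), and they covered 11.3 Mb. A longer region is more likely to touch the NC table, which covered 464.6 Mb, so the rule itself favours short regions. The lengths are therefore a description. The 11015 WL regions found in all 4 RAD tables (50.5%) had a median of 19000 bp, and the 2538 found in WL alone (11.6%) had a median of 3000 bp. Of the gained-and-kept regions, 941 held a single constituent peak and 73 were at most 1000 bp long. Among the other WL regions, 803 were shared with subgroup 6 alone and 870 with subgroup 5 alone. In the opposite direction, 5254 of 20732 NC regions (25.3%) overlapped no region of WG or WL.

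**Figure D1:**
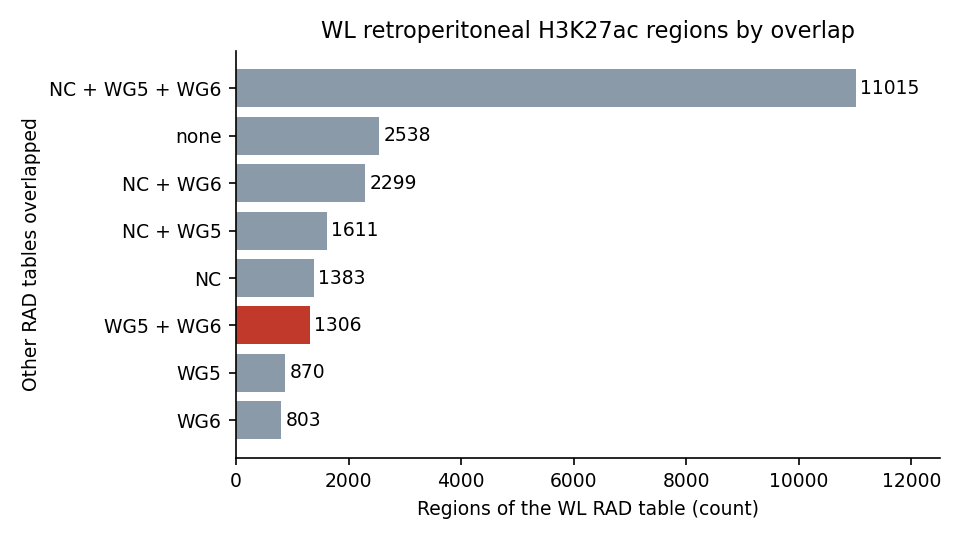
Number of WL retroperitoneal H3K27ac regions (horizontal axis, count) by the other retroperitoneal tables that they overlap (vertical axis; WG5 and WG6 are the obese subgroups 5 and 6). The red bar is the 1306 gained-and-kept regions, between the 11015 regions found in all 4 tables and the 803 shared with subgroup 6 alone.

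The ratio of H3K27ac to input reads in the gained-and-kept regions had a median of 1.77 in WL (0.791 to 8.44), 1.5 in subgroup 5 and 1.5 in subgroup 6. These values chose the regions and are a description. The medians over all regions of each table were 1.90 in WL, 1.61 in subgroup 5 and 1.58 in subgroup 6, and 2.19 over the WL regions found in all 4 tables. A ratio of at least 2 was reached by 413 of the gained-and-kept regions, and 2 had a ratio under 1. ROSE marked 2 of them as super-enhancers in WL, while 28 overlapped a super-enhancer of subgroup 5 and 32 one of subgroup 6.

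Both super-enhancers span the start of a gene. The first, chr2:6635401-6686600, is 51200 bp long, ranked 332 in the WL table with a ratio of 6.35, and spans the start of KCNK7, which encodes a potassium channel subunit. The second, chr3:677401-736400, is 59000 bp long, ranked 396 with a ratio of 5.22, and spans GPER1, a G protein-coupled receptor for estrogen. The second ended 600 bp from the nearest NC region, so it sits close to the limit of the rule, and the first lay 11200 bp from one. Both also overlapped regions in all 14 tables of the other depots, the 3 NC tables among them.

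The limit of the rule runs through a continuum. The gap from a gained-and-kept region to the nearest NC region had a median of 17000 bp. It was at most 2 kb for 119 regions, 5 of which touched the NC region, over 5 kb for 1015 and over 50 kb for 231. Just outside the rule, 869 WL regions that overlapped both obese tables also overlapped NC by at most 2 kb, the least of them by 200 bp. Inside it, the smallest overlap with an obese table was also 200 bp. The smaller of the overlaps with the 2 obese tables covered a median of 63.6% of a gained-and-kept region. With no NC region allowed within 5 kb 1015 regions were left, and with either obese table accepted there were 2979. The share of WL regions that were gained and kept ran from 4.81% on chromosome 8 to 6.74% on chromosome 15.

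The tables of the other depots, which the rule did not use, placed most gained-and-kept regions in lean fat elsewhere. Of the 1306 regions, 692 overlapped the NC table of GOM (53.0%), 559 that of MAD (42.8%) and 689 that of ULB (52.8%). All WL RAD regions did so at 73.5%, 71.0% and 73.1%. In all 3 of these NC tables together were 316 regions (24.2%), and in none were 312 (23.9%), against 55.1% and 11.5% of all WL RAD regions. So 312 regions had no counterpart in any NC table of the study, and the others had one in at least 1 depot. The NC tables of these depots rested on few H3K27ac samples, that of MAD on a single sample. Their samples share replicate numbers with those of NC RAD, so they may come from the same pigs. In the WL tables the gained-and-kept regions were found about as often as other WL RAD regions: 1236 in MAD (94.6% against 92.1%), 1210 in ULB (92.6% against 88.6%) and 961 in GOM (73.6% against 77.3%). The obese tables of other depots held between 48.3% (subgroup 5 ULB) and 83.5% (subgroup 5 MAD) of them, and 3 regions were in no table of another depot.

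**Figure D2:**
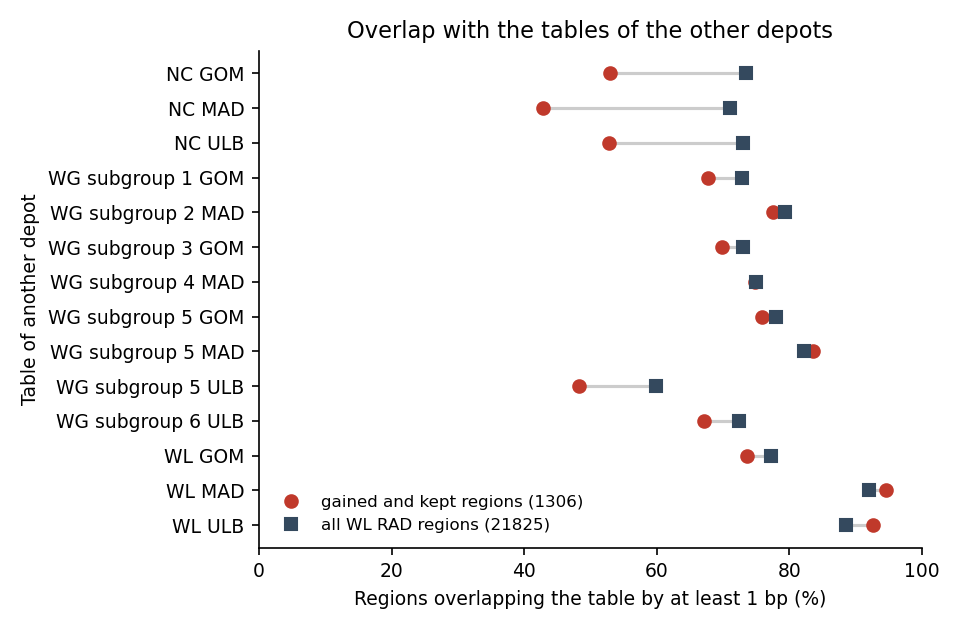
Share of gained-and-kept regions (red circles) and of all WL retroperitoneal regions (dark squares) that overlap each table of another depot (horizontal axis, % of regions). The circles lie to the left of the squares in the NC tables (42.8% to 53.0% against 71.0% to 73.5%) and slightly to the right in WL MAD and WL ULB.

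The NC tables of all 4 depots differed from the obese and weight-reduced tables in one respect that bears on what counts as absent. Of the regions up to 3 kb long, 22.9% in the NC table of RAD spanned a RefSeq transcription start, 19.6% to 29.9% over the NC tables of the 4 depots, and 2.46% to 4.84% over the WG and WL tables. Regions of the NC table of RAD contained 71.4% of the annotated start sites, and those of WL 39.9%. Of the 5254 NC regions without a WG or WL counterpart, 1158 (22%) lay wholly within 2 kb of a start site. Leaving out every NC region of that kind, a choice made after seeing these values, gave 1399 gained-and-kept regions instead of 1306. Only 1363 NC regions (6.57%) were of that kind, and longer NC regions that contain start sites stayed in. The change in number therefore cannot show how far start sites in the NC table shaped the set. Whether the difference comes from the diet or from how the tables were made cannot be told apart here.

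Gained-and-kept regions lay farther from genes than shared ones. Their centres fell in introns for 589 regions (45.1%), in exons for 104 (7.96%) and between genes for 613 (46.9%), whereas over all WL regions these shares were 52.0%, 8.63% and 39.4%. The median distance from the centre to the nearest start site was 41054 bp, against 25152 bp for regions in all 4 tables and 70884 bp for regions in WL alone, and 57 centres were within 2 kb of one. A start site lay inside 91 of the gained-and-kept regions (6.97%), against 24.2% of all WL regions, and longer regions contain more of them. The rule left out WL regions that overlap the NC table of RAD, whose regions contained 71.4% of the annotated start sites. Regions near start sites were thus less likely to qualify, so these distances and shares are a description. The base composition of the gained-and-kept regions was intermediate, with a median of 46.2% G or C, against 47.5% in all 4 tables and 40.8% in WL alone.

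No motif set the regions far apart from the WL table. Matches in the 300 bases at the centre were as frequent as in all WL regions for AP-1 (9.72% against 9.88%), TEAD (15% against 15.3%), nuclear factor I (15.3% against 15.7%), SOX (4.75% against 4.6%) and PU.1 (1.84% against 1.88%). EBF letters, bound by the early B-cell factors that also act in adipocytes, were in 7.81% of gained-and-kept centres, 5.59% of all WL centres, 6.13% of those in all 4 tables and 3.11% of those in WL alone. C/EBP letters were in 11.7% against 13.3%, IRF letters in 10.7% against 11.5%, GATA letters in 3.14% against 3.78%, the nuclear receptor core in 20.1% against 18.9% and the glucocorticoid receptor core in 18.7% against 20.0%. EBF letters are rich in G and C, and 8.74% of the centres of NC regions without a counterpart, whose median G or C content was 50.7%, held them.

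A RefSeq protein-coding gene lay within 10 kb of 862 gained-and-kept regions (66.0%, against 76.3% of all WL regions), and 444 had none. The 862 regions lay near 1006 genes, of which 800 were matched by symbol to a gene of the expression tables and 637 passed the filter on low counts, with 163 below it. Most of the genes (912) had a single region nearby and 94 had at least 2. MYO1D, an unconventional myosin, had 4, the most of any gene, and CDH13, a cadherin that binds adiponectin, had 3.

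Expression was measured by RNA-seq in 12 NC, 39 WG and 10 WL samples of RAD, and these levels were not used by the rule. Protein-coding counts per library ran from 8485310 to 20034857 in NC, 10179169 to 22426788 in WG and 12721994 to 20357269 in WL. Protein-coding genes held under 90% of the summed TPM in 6 of the 12 NC libraries, 3 of the 39 WG libraries and 3 of the 10 WL libraries, and fits without these 12 are given where they change a result. A gene was called when its adjusted p was below 0.05 and it differed more than 1.5-fold, by edgeR's quasi-likelihood test with Benjamini-Hochberg adjustment over all 13853 genes tested. The labels name separate pigs, so the p-values measure the spread between animals.

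Genes within 10 kb of the gained-and-kept regions were called higher in obese or weight-reduced fat about as often as genes at large, and whether slightly more or less often depended on the definition. From NC to WG, 39 of the 637 were higher (6.12%) and 47 lower (7.38%), when 7.06% of all tested genes were higher and 10.2% lower. From NC to WL, 63 were higher (9.89%) and 97 lower (15.2%), when 10.1% of all tested genes were higher and 16.9% lower. From WG to WL, 13 were higher (2.04%) and 21 lower (3.30%), when 2.03% of all tested genes were higher and 4.29% lower. The median log2 fold change of the nearby genes was -0.01 from NC to WG, -0.07 from NC to WL and -0.03 from WG to WL, beside -0.01, -0.02 and -0.02 over all tested genes. The comparisons of WG and of WL with NC share the NC libraries. With start sites within 50 kb taken as nearby, 8.71% of 861 genes were higher in WG than in NC and 12.54% higher in WL, above the 7.06% and 10.1% of all genes, and with the single nearest start site 54 of 721 genes (7.49%) were higher in WG and 80 in WL.

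The nearby genes of the 312 regions without any NC counterpart are a smaller set of 120 tested. From NC to WG, 8 were higher and 9 lower (6.67% and 7.5%), when 7.06% and 10.2% of all tested genes were. From NC to WL, 11 were higher and 16 lower (9.17% and 13.3%), when 10.1% and 16.9% of all tested genes were. Without the 12 libraries with few protein-coding transcripts, 28 nearby genes were higher and 17 lower from NC to WG, when 3.89% and 2.95% of all genes were. From NC to WL, 29 were then higher and 28 lower, when 4.03% and 5.91% of all genes were. The calls lost were mostly of lower genes: 23 of the 39 higher and 13 of the 47 lower calls from NC to WG were also made without those libraries, and 23 of 63 and 22 of 97 from NC to WL.

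**Figure D3:**
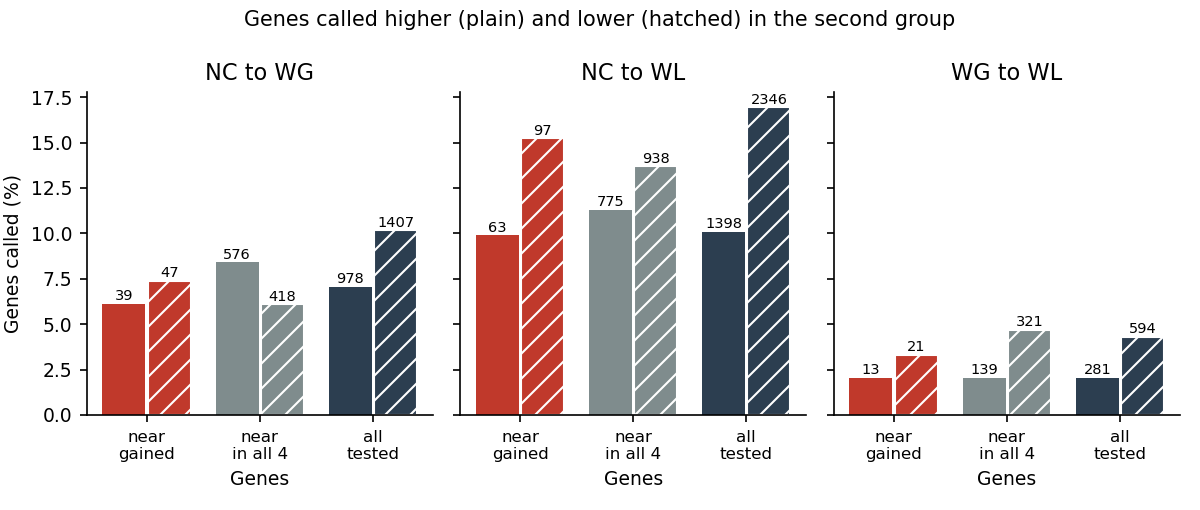
Share of genes called (vertical axis, % of genes tested) near gained-and-kept regions, near regions found in all 4 tables and over all tested genes, in 3 comparisons. Plain bars are genes higher in the second group and hatched bars are lower ones, with the number of genes above each bar. The red bars, for genes near gained-and-kept regions, stand close to or below the bars for all tested genes.

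Among the nearby genes that were higher in both groups, those with the largest changes include a myeloid actin regulator, a vesicular transporter, receptors and a smooth muscle actin. Levels are TPM, given as the lowest, median and highest sample. Fold changes come from counts with edgeR's own scaling of libraries (TMM), and need not match the ratio of the TPM levels. THEM6, of the thioesterase superfamily, lies 5297 bp from a region of 8600 bp with an H3K27ac-to-input ratio of 3.85. It was at 0, 0.201 and 0.738 TPM in NC, 0.0757, 0.970 and 2.40 in WG and 0.517, 1.5 and 2.53 in WL. The log2 fold change was 1.56 ± 0.42 (SE) from NC to WG (edgeR adjusted p = 0.00283) and 2.03 ± 0.50 from NC to WL (edgeR adjusted p = 0.000989). Its level was low throughout, 8 of the 10 WL samples were above every NC sample, and both calls were lost without the libraries with few protein-coding transcripts (edgeR adjusted p = 0.191 and 0.125). The log2 fold changes were then 1.15 in WG and 1.49 in WL, and the NC median was 0.475 TPM.

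CAPG encodes a protein that caps actin filaments and is abundant in macrophages, and has 2 gained-and-kept regions within 10 kb, the longer of 30800 bp. Its levels were 9.72, 31.3 and 74.2 TPM in NC, 28.1, 104.1 and 279.6 in WG and 54.0, 98.3 and 268.2 in WL. It was higher by 1.46 ± 0.28 on the log2 scale in WG (edgeR adjusted p = 3.55e-05) and by 1.54 ± 0.33 in WL (edgeR adjusted p = 0.000196). The groups overlapped at the edges, with 29 of 39 WG and 9 of 10 WL samples above the NC range, and the WL call was lost without the 12 libraries (edgeR adjusted p = 0.0677). The log2 fold changes were then 1.12 in WG and 1.13 in WL, and the NC median was 61.6 TPM.

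SLC17A9 encodes the vesicular nucleotide transporter, which loads ATP into secretory vesicles, and lies 16887 bp by its start from a region of 2000 bp. It was at 0.361, 1.52 and 3.84 TPM in NC, 2.40, 5.55 and 14.5 in WG and 3.09, 4.55 and 12.3 in WL. The log2 fold change was 1.68 ± 0.25 in WG (edgeR adjusted p = 4.48e-07) and 1.42 ± 0.29 in WL (edgeR adjusted p = 0.000123). All 10 WL samples were above the NC median, and 7 of them were above the highest NC sample.

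MDGA1, a membrane-anchored cell adhesion protein, was at 0.0272, 0.312 and 0.745 TPM in NC, 0.219, 0.785 and 2.49 in WG and 0.38, 0.882 and 1.75 in WL. It differed by 1.32 ± 0.29 (edgeR adjusted p = 0.000263) and 1.38 ± 0.34 (edgeR adjusted p = 0.00118) on the log2 scale. The region beside it, 2800 bp long and 6388 bp from the gene start, was also present in all 14 tables of the other depots.

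GPR153, an orphan G protein-coupled receptor, was the one of these genes whose level separated WL from NC in every sample. It was at 0.482, 1.81 and 3.24 TPM in NC, 1.92, 4.91 and 9.77 in WG and 4.87, 8.79 and 15.5 in WL. The log2 fold change was 1.23 ± 0.18 in WG (edgeR adjusted p = 3.69e-07) and 2.03 ± 0.22 in WL (edgeR adjusted p = 3.2e-10). From WG to WL it rose again, by 0.81 ± 0.17 (edgeR adjusted p = 0.000667), and it was the only one of the genes described with it called in that comparison. The region of 22600 bp spans its start site, ends 1800 bp from an NC region and overlaps NC tables of 2 other depots.

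The remaining genes described were a hemoglobin, an estrogen receptor, an actin and a transporter. HBM, hemoglobin mu, was at 0, 2.54 and 11.13 TPM in NC, 1.94, 8.58 and 29.8 in WG and 4.03, 14.7 and 46.5 in WL, higher by 1.18 ± 0.39 (edgeR adjusted p = 0.0137) and 1.85 ± 0.46 (edgeR adjusted p = 0.00135). All 3 erythroid markers, HBM among them, were called higher in both groups, and their summed level ran from 199.1 to 2186 TPM in NC, 461.8 to 6185 in WG and 1225 to 6060 in WL. HBM transcripts belong to red blood cells, and the part of blood left in the tissue was not tested.

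GPER1, under the second super-enhancer, was at 0.807, 1.61 and 4.2 TPM in NC, 1.40, 4.91 and 12.7 in WG and 2.75, 6.19 and 12.3 in WL. Its log2 fold change was 1.12 ± 0.26 (edgeR adjusted p = 0.000483) and 1.51 ± 0.31 (edgeR adjusted p = 0.00011). ACTA2 encodes the actin of smooth muscle and myofibroblasts. It was at 36.6, 77.7 and 177.4 TPM in NC, 73.7, 175.6 and 462.9 in WG and 96.6, 219.5 and 443.1 in WL, higher by 0.98 ± 0.20 (edgeR adjusted p = 0.000145) and 1.23 ± 0.25 (edgeR adjusted p = 9.5e-05). The 5 smooth muscle and pericyte markers, ACTA2 included, summed to 296.6 to 645.4 TPM in NC, 473.7 to 1296 in WG and 437.0 to 1637 in WL, 2 of the 5 called higher in each group and 1 lower in WL, and in bulk fat more cells of a type and more RNA per cell cannot be told apart. MFSD12, a lysosomal cysteine transporter, was at 5.35, 7.99 and 13.4 TPM in NC, 8.51, 22.2 and 81.1 in WG and 12.2, 19.3 and 35.6 in WL, higher by 1.32 ± 0.21 (edgeR adjusted p = 1.27e-06) and 0.93 ± 0.24 (edgeR adjusted p = 0.00197). Without the 12 libraries the calls of HBM were lost in both groups (log2 fold changes 1.14 and 1.64), that of GPER1 in WG (0.96) and that of MFSD12 in WL (0.89), with sizes near those with all libraries and 6 NC libraries left.

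**Figure D4:**
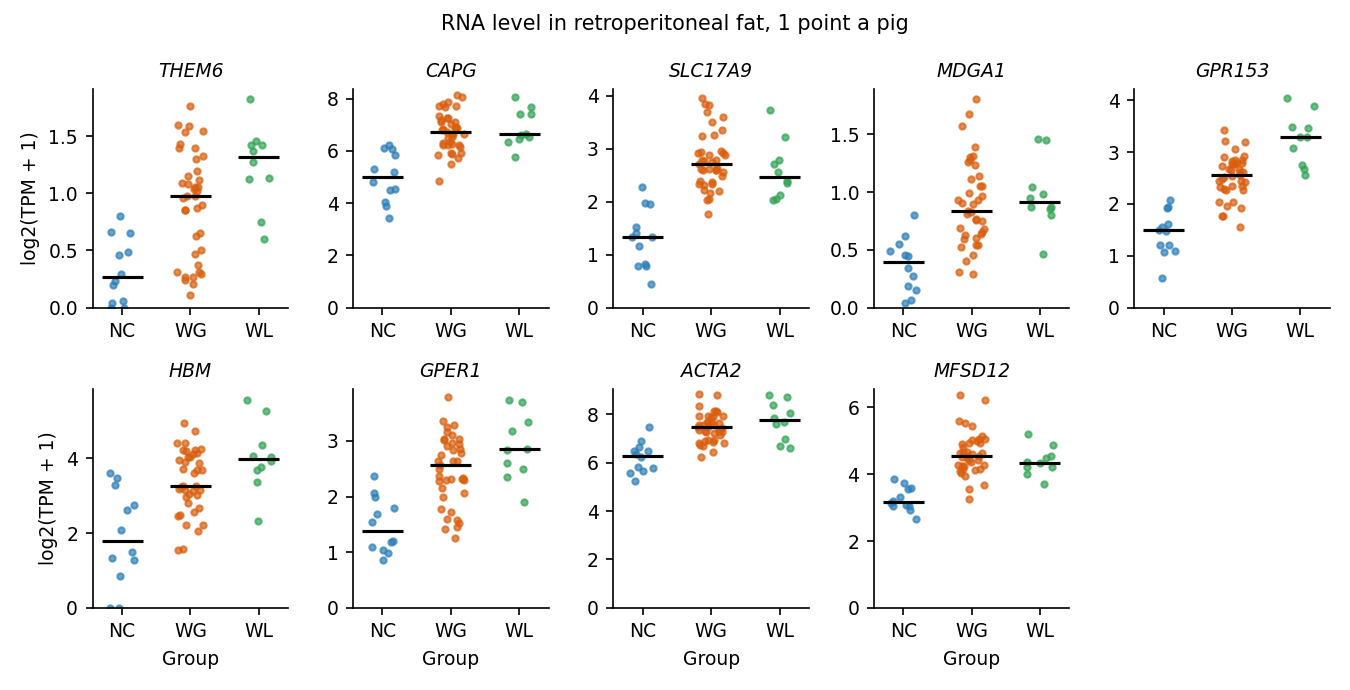
RNA level in retroperitoneal fat (vertical axes, log2 of TPM plus 1) of the 9 genes described near gained-and-kept regions with large increases in both groups, 1 point a pig for 12 NC, 39 WG and 10 WL samples, with the group median as a bar. For GPR153 every WL point lies above every NC point, and the other genes overlap between groups.

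Of the 5 genes described that were lower in both groups, only GABRR1 kept its calls without the libraries with few protein-coding transcripts. GABRR1, a subunit of the GABA receptor, was at 0.433, 1.67 and 3.61 TPM in NC, 0.105, 0.338 and 1.34 in WG and 0.0641, 0.373 and 1.04 in WL. It fell by 2.36 ± 0.26 on the log2 scale in WG (edgeR adjusted p = 2.09e-10) and by 2.24 ± 0.39 in WL (edgeR adjusted p = 1.13e-05), and its NC median was still 1.40 TPM without those libraries. The region in its intron had a ratio of 0.911, and it is 1 of the 2 gained-and-kept regions with fewer H3K27ac than input reads. EME1, part of a nuclease that resolves DNA junctions, was at 0.181, 4.40 and 11.6 TPM in NC, 0.0549, 0.300 and 2.39 in WG and 0.165, 0.850 and 1.85 in WL, with log2 fold changes of -3.48 ± 0.45 and -2.83 ± 0.71 (edgeR adjusted p = 1.61e-08 and 0.00125). Without the 12 libraries the signs turned to 0.21 and 0.91 and the NC median was 0.222 TPM.

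CLVS1, a lipid-binding protein of clathrin-coated vesicles, went the same way as EME1. It was at 2.71, 24.6 and 59.9 TPM in NC, 4.30, 9.31 and 15.5 in WG and 4.06, 8.13 and 15.1 in WL, with log2 fold changes of -1.98 ± 0.26 and -2.18 ± 0.39 (edgeR adjusted p = 1.76e-08 and 1.41e-05) that turned to 0.64 and 0.43 without the 12 libraries. WDR93 changed by -3.06 ± 0.30 in WG and -3.13 ± 0.48 in WL (edgeR adjusted p = 4.29e-12 and 9.34e-07), and by -0.58 and -0.44 without them, when neither passed. ARG1, the arginase of the urea cycle that alternatively activated mouse macrophages also use, was at 0.854, 3.78 and 92.5 TPM in NC, 0.333, 2.84 and 17.6 in WG and 0.957, 2.98 and 8.65 in WL. Its log2 fold changes of -1.96 ± 0.42 and -2.07 ± 0.63 (edgeR adjusted p = 0.00022 and 0.00717) were -0.83 and -1.73 without them and no longer passed (edgeR adjusted p = 0.300 and 0.0832).

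The most abundant nearby genes did not pass both thresholds. RPL6, a protein of the large ribosomal subunit, was at 1712, 2407 and 4160 TPM in NC, 1496, 2521 and 3723 in WG and 2063, 2988 and 3976 in WL, with log2 fold changes of -0.27 ± 0.12 and -0.16 ± 0.16 (edgeR adjusted p = 0.0793 and 0.449). Its median TPM was thus higher in WG and WL than in NC, while the fold changes from TMM-scaled counts were negative. The direction for RPL6 depends on the scaling. IL6ST, the signal-transducing receptor subunit of interleukin-6 and related cytokines, was at 231.0, 311.7 and 414.3 TPM in NC, 276.1, 469.8 and 786.2 in WG and 259.7, 460.6 and 532.6 in WL. It differed from NC by 0.32 ± 0.11 in WG (edgeR adjusted p = 0.0157) and 0.11 ± 0.14 in WL (edgeR adjusted p = 0.517), under the fold required. ICMT, which methylates prenylated proteins, EIF3H, a translation initiation factor subunit, and RPS15, of the small ribosomal subunit, had log2 fold changes of -0.44, -0.40 and 0.13 in WG and -0.55, -0.50 and 0.23 in WL.

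Besides GPER1, genes at the super-enhancers and at the 5 densest gained-and-kept regions gave the following values. EHBP1L1, a protein of membrane trafficking in the first super-enhancer, was at 8.61, 12.8 and 21.9 TPM in NC, 14.2, 23 and 52.3 in WG and 14.7, 23.9 and 44.1 in WL. It was called in both groups at folds just above the threshold, with log2 fold changes of 0.62 ± 0.13 and 0.60 ± 0.17 (edgeR adjusted p = 0.000228 and 0.00332), and neither call held without the 12 libraries (edgeR adjusted p = 0.0644 and 0.110). FAM89B in the same region was called in WL alone, at 0.64 ± 0.13 (edgeR adjusted p = 0.000182) after 0.35 ± 0.11 in WG, and that call was lost without the 12 libraries, at 0.41 (edgeR adjusted p = 0.0945). MAP3K11, a kinase upstream of JNK, and PCNX3 were not called in either group, at 0.30 and 0.19 for MAP3K11 and -0.10 and -0.62 for PCNX3. KCNK7, at medians of 0.696, 0.892 and 0.373 TPM in NC, WG and WL, was below the filter.

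DAZAP1, an RNA-binding protein that holds the fifth densest region in an intron, was at 93.0, 136.6 and 270.0 TPM in NC, 78.0, 123.2 and 208.3 in WG and 122.8, 150.4 and 248.5 in WL. It differed by -0.49 ± 0.10 from NC to WG (edgeR adjusted p = 0.00014), under the fold required, and by -0.20 ± 0.14 from NC to WL (edgeR adjusted p = 0.236). From NC to WL its median TPM rose while the fold change from TMM-scaled counts was negative. The fourth densest region, 400 bp long, lies between genes, 461537 bp from the nearest start site, that of ZP4, an egg coat protein whose medians were 0, 0.244 and 0.0378 TPM. The input density there was 0.702 in the same units.

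Few of the genes on fixed lists of cell markers and fat metabolism had a gained-and-kept region nearby, as few genes did at large (800 of 13067 matched genes, 6.12%, against 60.5% near a region found in all 4 tables). Of the 9 adipocyte markers, 18 genes of lipid synthesis and storage and 13 adipogenic transcription genes placed in the genome, 0 lay within 10 kb of one, whereas 8, 13 and 12 lay near regions found in all 4 tables. The same was true of 16 inflammation genes and 16 genes of the extracellular matrix, of which 13 and 11 lay near regions in all 4 tables. Against a share of 6.12%, a count of 0 in lists of this length is no result about them. In WL compared with NC, 9 of the 19 lipid synthesis genes measured were called lower, when 16.9% of all tested genes were. The fit without the 12 libraries was not summarized for this list.

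Of the listed genes with a gained-and-kept region nearby, CPT1A and PPARGC1A belong to lipolysis and fatty acid oxidation. CPT1A carries fatty acids into mitochondria, and its region of 4600 bp lies in an intron, 18800 bp from the nearest NC region. It was at 21.6, 29 and 52.8 TPM in NC, 13.1, 43.1 and 89.9 in WG and 43.5, 65.7 and 82.5 in WL. The log2 fold change was 0.30 ± 0.17 from NC to WG (edgeR adjusted p = 0.153) and 0.73 ± 0.21 from NC to WL (edgeR adjusted p = 0.00474), and 8 of 10 WL samples were above the NC range. The WL difference narrowly failed without the 12 libraries, at 0.85 (edgeR adjusted p = 0.054). PPARGC1A, a coactivator of mitochondrial biogenesis, was at 0.455, 0.768 and 10.9 TPM in NC, 0.185, 1.22 and 5.54 in WG and 0.602, 0.815 and 2.32 in WL, with a log2 fold change of -1.36 ± 0.52 in WL (edgeR adjusted p = 0.0305) that turned to 0.22 without those libraries.

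AIF1, the macrophage protein IBA1, was the one of 7 macrophage markers with a gained-and-kept region nearby. It was at 9.64, 28.7 and 53.4 TPM in NC, 32.3, 63.6 and 182.8 in WG and 40.8, 61.6 and 113.3 in WL, higher by 1.00 ± 0.22 in WG (edgeR adjusted p = 0.000281) and 0.80 ± 0.26 in WL (edgeR adjusted p = 0.0125). The 7 macrophage markers summed to 122.8 to 490.6 TPM in NC, 204.7 to 1224 in WG and 251.0 to 826.4 in WL, and 3 of them were called higher in each group. Without the 12 libraries the AIF1 difference in WL was 0.66 and no longer passed (edgeR adjusted p = 0.201), and that in WG, 0.92, did (edgeR adjusted p = 0.0345). The part of cell composition in these levels was not tested.

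The A-B index, a score from Hi-C contacts whose sign assigns each bin of 20 kb to the open A or the closed B compartment, was measured in 12 NC, 40 WG and 10 WL samples of RAD and was not used by the rule. The centres of gained-and-kept regions fell in 1288 of 113298 bins, and 75.2% of these had a positive mean index, against 48.6% of all bins, 87.2% of bins with a region in all 4 tables and 58.8% of those with a region in WL alone. Their bins had a median index of 1.45 with the normal diet (NC), 1.6 in WG and 1.83 in WL. The mean index turned from negative in NC to positive in both WG and WL in 33 of these bins (2.56%) and the opposite way in 1, when it did so in 2.33% and 0.232% of bins with any WL region and in 1.53% and 0.312% of all bins.

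A bin was called by limma where its adjusted p was below 0.05 and its index differed by more than 0.75. From NC to WG, 47 bins of gained-and-kept regions were higher and 5 lower (3.65% and 0.388%), when 3.72% of all bins were higher and 0.645% lower. From NC to WL, 275 were higher and 8 lower (21.4% and 0.621%), when 15.1% of all bins were higher and 0.576% lower. From WG to WL, 66 were higher and 3 lower (5.12% and 0.233%), when 3.78% of all bins were higher and 0.207% lower. The share higher in WL than in NC was thus above that of all bins, and below the 25.3% of bins with a region in all 4 tables and the 23.7% of all bins with a WL region.

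The median difference over all bins from NC to WL was 0.285, and that of the gained-and-kept bins was 0.327. Quantile normalization of the index across the RAD samples brought the median of all bins to -0.0143. With it, 104 gained-and-kept bins were higher and 76 lower from NC to WL (8.07% and 5.90%), when 5.60% and 4.44% of all bins were. From NC to WG the normalized index gave 13 higher and 18 lower bins (1.01% and 1.40%, beside 1.19% and 1.49% of all bins), and from WG to WL 30 and 7 (2.33% and 0.543%, beside 1.3% and 0.770%). With the normalized index the excess of higher over lower calls from NC to WL was smaller, at gained-and-kept bins and over all bins. Both shares of the gained-and-kept bins stayed above those of all bins in that comparison. Bins with any WL region and bins with a region in all 4 tables were not counted with the normalized index. Whether the gained-and-kept bins differ from those was thus not tested. The source of the shift shared by all bins was not tested.

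**Figure D5:**
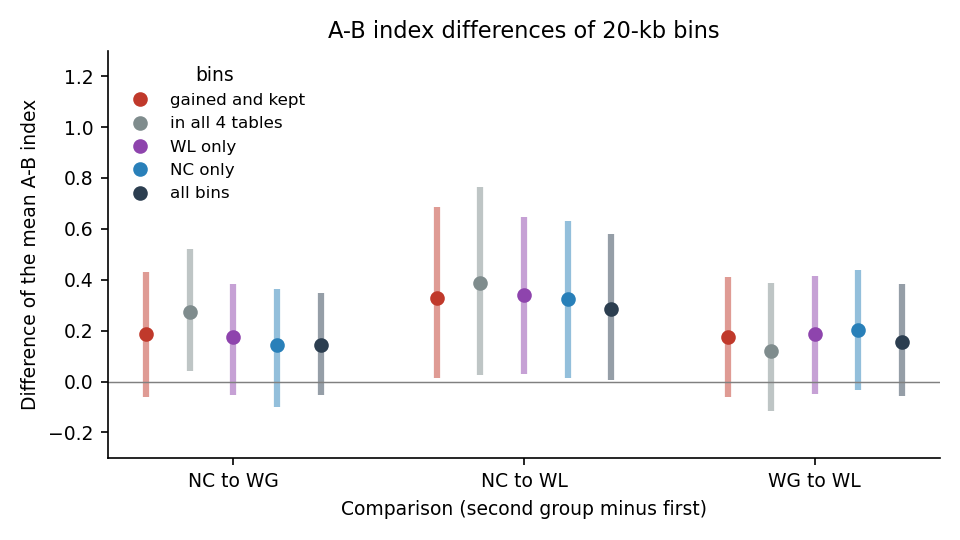
Difference of the mean A-B index of bins of 20 kb (vertical axis, index units, second group minus first) for 3 comparisons. Points are medians over bins and bars run from the lower to the upper quartile, for bins at gained-and-kept regions (red), at regions in all 4 tables, at regions in WL or NC alone and for all bins. From NC to WL the red median is 0.327 and that of all bins 0.285.

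At the level of single genes, the bins of a few gained-and-kept regions passed the test for the index, here without quantile normalization and so with the shift shared by all bins. The bin of the CAPG region had a mean index of 4.53 ± 0.38 (SD, n = 12) in NC, 5.24 ± 0.44 (n = 40) in WG and 5.55 ± 0.34 (n = 10) in WL. Its difference from NC was 0.71 in WG (limma adjusted p = 0.000134) and 1.02 in WL (limma adjusted p = 1.17e-05), and the WG difference was under the minimum of 0.75. The bin of the CPT1A region went from 3.63 ± 0.39 in NC to 4.35 ± 0.36 in WG and 4.63 ± 0.41 in WL (limma adjusted p = 2.9e-05 and 2.69e-06), again under the minimum in WG, where the RNA was not called either. The bin of DAZAP1, whose RNA was not called, went from 5.51 ± 0.29 to 6.31 ± 0.36 and 6.63 ± 0.30 (limma adjusted p = 1.68e-06 and 5.63e-08). The bin of RPL6, whose RNA was not called either, differed from NC by 0.38 in WG and 0.89 in WL (limma adjusted p = 0.0307 and 4.99e-05). At EME1, whose RNA was called lower with all libraries, the index was higher by 0.64 and 0.66 (limma adjusted p = 0.00394 and 0.0165), under the minimum. At ACTA2 the mean index went from 0.80 ± 0.37 in NC to 1.43 ± 0.31 in WG and 1.51 ± 0.34 in WL (limma adjusted p = 3.01e-05 and 8.52e-05), a difference under the minimum. The bins at SLC17A9, THEM6 and GPER1 differed from NC by between -0.39 and -0.06 in both groups, without passing the test (lowest limma adjusted p = 0.193).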

How the data were processed

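H3K27ac ChIP-seq, RNA-seq and Hi-C tables of pig retroperitoneal fat were used as deposited. The authors aligned ChIP-seq reads with BWA (0.7.15), removed duplicates with SAMtools (1.3.1), called peaks with SICER (window 200 bp, gap of 3 windows, FDR 0.05), kept pooled peaks found in at least 50% of the replicates, and, by their description, ran ROSE with a stitching distance of 12500 bp and an exclusion of 2000 bp around start sites. The NC table of RAD still held 1363 regions wholly within 2 kb of a RefSeq start site. Whether the exclusion was run alike for every table was not tested. The deposited ROSE signal is the density of H3K27ac or input reads, scaled to library size, times region length, pooled by the authors over the samples of a group, and was divided by the length here. The authors estimated transcript abundance with kallisto (0.43.0) on Ensembl release 102, and their table holds expected counts per gene, which entered the tests as whole numbers after rounding. The deposited TPM values are the authors' and are used for levels. The authors derived the A-B index, a score without unit, from Hi-C contacts in bins of 20 kb. Each sample's group came from its GEO label.

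Overlaps were of at least 1 bp. Reference coordinates were checked: the last bin of each of the 18 autosomes matched RefSeq Sscrofa11.1. Of 18691 RefSeq autosomal protein-coding genes, 13067 were matched by symbol to the 21280 genes of the count table. Genes with TPM above 0.5 in 80% or more of the libraries of any RAD group were tested with edgeR (4.0.16, TMM, quasi-likelihood) over all 3 RAD groups, and bins with limma (3.58.1). Both were tested on simulated data. The tables also hold 45 columns of per-sample values, under 9 names, matched to no label and not used here. Tables of the other depots served only for overlaps and for the shares of short regions that span a start site.

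The regions, the gene lists and the named-gene rule were chosen with earlier results of these data known. Named genes were those near a region that were called higher in both WG and WL (10) or lower in both (5) with the largest smaller change, the 5 with the highest TPM, the genes nearest to the 5 densest regions, those in super-enhancers (up to 5), and listed genes near a region. Of these, 2 are not reported here. Replicate numbers name different pigs in each group and do not pair them.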

Additional observations from a re-analysis of the deposited data

Results flagged for a closer look

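In 3 of the 29 named genes, 1 of the 10 WL samples stood apart from the other 9 by Dixon's criterion, which chance meets in about 1 group in 20. ZP4 was at 1.28 TPM in WL replicate 9, and the next highest was at 0.435. In WL replicate 3, DAZAP1 was at 248.5 TPM, followed by 182.0, and PPARGC1A was at 2.32 TPM, followed by 1.14.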

How the results depend on the processing

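Of 57 values of the 7 counts recomputed under an alternative, 39 stayed within 1.5 times the reported one. Of 750 values for single genes and for each direction, 679 were counted as unchanged. For a direction count that meant within 1.5 times the reported one, and for a gene that it stayed called or stayed not called. A gene called in neither fit was counted as unchanged even where its sign turned. The number of gained-and-kept regions (1306) was 2176 with subgroup 5 alone required, 2979 with either subgroup and 519 in the denser part of the WL table. Nearby genes changed from NC to WG (86) numbered 45 of 637 without the libraries with under 90% protein-coding TPM. They numbered 132 of 861 with start sites within 50 kb and 52 of 410 at regions with no NC region within 5 kb. In that order 4.40%, 8.71% and 4.63% were higher, beside 3.89%, 7.06% and 7.06% of all genes. Lower were 2.67%, 6.62% and 8.05%, beside 2.95%, 10.2% and 10.2% of all genes. From NC to WL (160) there were 57 of 637 without those libraries and 97 of 410 at those regions. Higher were 4.55% and 7.80%, beside 4.03% and 10.1% of all genes, and lower 4.40% and 15.9%, beside 5.91% and 16.9%. From WG to WL (34) there were 21 of 637 with the protein-coding share as a covariate and 56 of 861 with start sites within 50 kb. Higher were 1.57% and 2.67%, beside 1.39% and 2.03% of all genes, and lower 1.73% and 3.83%, beside 2.56% and 4.29%. Without those libraries the log2 fold changes of EME1 turned to 0.21 (WG) and 0.91 (WL), those of CLVS1 to 0.64 and 0.43, and that of PPARGC1A in WL to 0.22. Quantile normalization of the A-B index gave 31, 180 and 37 bins for NC to WG, NC to WL and WG to WL (52, 283 and 69 reported), and no minimum difference gave 359, 496 and 257, a looser rule by construction. With no minimum, 25.6%, 36.4% and 18.4% of 1288 bins were higher, beside 18.3%, 29.2% and 16.2% of all bins. Lower were 2.25%, 2.10% and 1.55%, beside 3.61%, 2.41% and 1.86%. With no NC region within 5 kb 34 of 1007 bins changed from NC to WG (2.98% higher and 0.397% lower, beside 3.72% and 0.645% of all bins). Apart from fewer samples, fewer regions or a looser rule where that is how the alternative was built, the cause was not tested.

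With the replicate number as a block (replicate block), 37 of 637 nearby genes were called from NC to WG (2.83% higher and 2.98% lower, beside 3.68% and 5.20% of all genes). The numbers name different pigs and do not pair them: same-numbered samples correlated over 0.1 in 5 of 11 pairs for NC and WG, 2 of 10 for NC and WL and 3 of 10 for WG and WL, and 1 sample in each correlated best with its own number. Depth limits genes at a low level: 163 matched nearby genes were below the filter. H3K27ac came from 2 NC samples and from 1 sample of subgroup 6, pooled, so no region carries an error.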

Other observations

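The genes named in this section were chosen after their values were seen. PLIN2, which coats lipid droplets, has a gained-and-kept region within 10 kb, and its mean level was 130.4 TPM in NC, 312.6 in WG and 263.5 in WL. It was higher by 1.04 ± 0.23 on the log2 scale in WG (edgeR adjusted p = 0.000368) and by 0.71 ± 0.28 in WL (edgeR adjusted p = 0.036). Without the 12 libraries with few protein-coding transcripts these were 0.94 and 0.68 and did not pass (edgeR adjusted p = 0.0558 and 0.241).

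From weight gain to weight loss, a few genes near gained-and-kept regions passed the test in each direction. GNAZ, a G protein alpha subunit, went from a mean of 3.72 to 9.50 TPM (1.29 ± 0.16, edgeR adjusted p = 5.12e-08), and SVEP1, a large extracellular matrix protein, from 171.4 to 284.2 TPM (0.66 ± 0.12, edgeR adjusted p = 0.00019). ESR1, the estrogen receptor alpha, went from 6.76 to 11.2 TPM (0.63 ± 0.19, edgeR adjusted p = 0.0213) and PEX11A, of peroxisomes, from 37.8 to 66.0 TPM (0.77 ± 0.23, edgeR adjusted p = 0.0181). BCAT2, the mitochondrial enzyme that starts the breakdown of branched-chain amino acids, went from 42.3 to 28.5 TPM (-0.61 ± 0.10, edgeR adjusted p = 3.77e-05). ADHFE1, a mitochondrial dehydrogenase, went from 37.4 to 13.7 TPM (-1.45 ± 0.28, edgeR adjusted p = 0.00036), and ICAM1, an adhesion molecule that leukocytes bind, from 39.9 to 26.9 TPM (-0.61 ± 0.19, edgeR adjusted p = 0.0256). Without the 12 libraries, PEX11A (0.57, edgeR adjusted p = 0.183) and ICAM1 (-0.71, edgeR adjusted p = 0.0556) no longer passed, and GNAZ, SVEP1, ESR1, BCAT2 and ADHFE1 did, with edgeR adjusted p between 3.78e-06 and 0.0466.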
